A study of Mus musculus with 6 samples.

Results

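The endoplasmic reticulum (ER) genes described here number 32 of the 54532 genes in the deposited raw count table, and were chosen by name, as the rows whose symbol is on a fixed list of ER folding, ER-associated degradation and stress sensor genes. They fall into 12 ER chaperones and co-chaperones, 9 disulfide and prolyl isomerases and oxidases, 7 ER-associated degradation genes and 4 genes of the stress sensors and *Xbp1*. All 32 passed the filter on low counts. RNA-seq was done on 6 single embryonic mouse hearts at E9.5, 3 WT and 3 *Smyd1-KO*. *Smyd1* encodes a muscle histone methyltransferase, and the knockout hearts come from embryos homozygous for a null allele that is carried through the whole body, bred from *Smyd1*+/− mice. The labels list no treatment for either genotype. Because each library is a whole heart, fewer cells of a type and less RNA per cell cannot be told apart.

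Secreted and membrane proteins fold in the ER, where BiP (*Hspa5*) and its co-chaperones bind unfolded chains, calnexin and calreticulin hold glycoproteins, and disulfide isomerases, recharged by ERO1 oxidases, form disulfide bonds. Chains that fail to fold are handed to the degradation machinery of the ER membrane and then to the proteasome. When unfolded proteins build up, the membrane sensors IRE1, PERK and ATF6 start the unfolded protein response (UPR). ATF6 and spliced XBP1 raise chaperone and degradation genes through ER stress elements in promoters, whereas PERK slows translation and raises ATF4 and its targets. Low oxygen also reaches this machinery, since the ERO1 gene *Ero1l* and collagen prolyl hydroxylase genes are known targets of the hypoxia-inducible factors (HIF).

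The ER stress element was searched for in the promoters because it is the sequence through which ATF6 and XBP1 are known to act. The element was taken as CCAAT, 9 bases of any kind and CCACG, on either strand. Windows came from RefSeq (GRCm38.p6) and ran from 250 bases before to 50 bases after each gene's start. Of the 32 genes, 27 matched a RefSeq promoter entry, with 32 windows in all, and *Hyou1*, *Hspa13*, *Manf*, *Derl1* and *Atf6* had no entry in the table. The element was found in 10 of the 27 genes, beside 37 of 27025 genes (0.137%) with a promoter entry. The genes were listed as ER folding and stress genes, so a higher share was built into the choice and is no test. *Hsp90b1* had a pair of matches and the other 9 genes had 1 each. The matches read 5′ to 3′ as the element runs, with its CCAAT and CCACG ends in capitals.
*Calr* (chr8:84847075-84847093, + strand): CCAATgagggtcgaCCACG
*Canx* (chr11:50325800-50325818, - strand): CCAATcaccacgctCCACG
*Creld2* (chr15:88819520-88819538, - strand): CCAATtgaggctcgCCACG
*Derl3* (chr10:75893242-75893260, - strand): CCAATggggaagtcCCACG
*Dnajc3* (chr14:118937827-118937845, + strand): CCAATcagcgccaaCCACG
*Ero1lb* (chr13:12565682-12565700, - strand): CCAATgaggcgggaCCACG
*Hsp90b1* (chr10:86705533-86705551, + strand): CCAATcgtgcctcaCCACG
*Hsp90b1* (chr10:86705638-86705656, - strand): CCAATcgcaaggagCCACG
*Hspa5* (chr2:34772025-34772043, + strand): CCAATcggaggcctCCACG
*Pdia6* (chr12:17266491-17266509, + strand): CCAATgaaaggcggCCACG
*Syvn1* (chr19:6046532-6046550, + strand): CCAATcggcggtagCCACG

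A shorter form, ATTGG, 1 base and CCACG, was found in *Dnajb11* and *Herpud1*, and in 12 of all 27025 genes (0.044%). The match in *Dnajb11* lies 7 to 17 bases after the RefSeq start, and the one in *Herpud1* before it.
*Dnajb11* (chr16:22857852-22857862, + strand): ATTGGcCCACG
*Herpud1* (chr8:94386377-94386387, + strand): ATTGGgCCACG

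With the libraries scaled to a common size, the 32 genes together held 8002 to 9082 CPM, counts scaled by library size, in the WT hearts and 8175 to 8822 CPM in the *Smyd1-KO* hearts, so the sums of the groups overlapped. Values of single hearts are given in the order of hearts 1, 2 and 3 of each genotype. Total counts per heart ran from 48627825 to 64217529. *Smyd1* itself had 414, 379 and 270 CPM in WT hearts and 101, 222 and 206 CPM in *Smyd1-KO* hearts, with no overlap, at a log2 fold change of -1.01 (SE 0.300, edgeR adjusted *P*=0.0973, DESeq2 adjusted *P*=0.00538). The exons removed by the null allele were not looked up, so counts over the whole gene check the genotype only in part. The 14 cardiomyocyte markers were all present, with a summed level of 13351 to 22562 CPM in WT and 10135 to 21102 CPM in *Smyd1-KO* hearts. The 14 erythroid markers summed to 761 to 1021 CPM in WT and 28.9 to 287 CPM in *Smyd1-KO* hearts, and 5 of them were called lower. *Smyd1-KO* heart 1 had the lowest sum of both lists, with 10135 CPM of cardiomyocyte markers against 21006 and 21102 CPM in the other *Smyd1-KO* hearts and 28.9 CPM of erythroid markers against 287 and 167 CPM. The 9 cushion and outflow mesenchyme markers summed to 570 to 844 CPM in WT and 752 to 4068 CPM in *Smyd1-KO* hearts, the highest being *Smyd1-KO* heart 3. Sums for the 11 endothelial markers were 689 to 827 CPM against 753 to 1140 CPM, those for the 8 epicardial markers were 132 to 158 CPM against 168 to 323 CPM, those for the 9 macrophage markers, tested or not, were 6.63 to 6.90 CPM against 6.54 to 8.90 CPM and those for the 13 endoderm markers, tested or not, were 82.9 to 146 CPM against 129 to 161 CPM. No marker was at 0 in every heart, and *Cx3cr1*, *Adgre1*, *C1qa*, *C1qb*, *C1qc*, *Fcgr1*, *Msln*, *Apoa2*, *Apoa4* and *Trf* were under 1 CPM in all 6. The part of these cell type differences in the results that follow was not tested.

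Of the 32 ER genes, 2 were upregulated and 4 were downregulated in *Smyd1-KO* hearts. Calls required an adjusted *P* under 0.05 in edgeR's quasi-likelihood test over 19372 genes and a log2 fold change of 0.5 or more in size. By the same rule 2.86% of all tested genes were called higher and 1.42% lower. Both upregulated genes belong to the arm of disulfide and prolyl isomerases and oxidases, and all 4 downregulated genes to the arm of chaperones and co-chaperones. No gene of ER-associated degradation and no stress sensor was called. At an unadjusted *P* under 0.05, 3 genes were higher and 6 lower, against 13.1% and 11.9% of all tested genes. The *Smyd1-KO* and WT hearts did not overlap in 5 genes that were higher and 9 that were lower, where 15.9% and 15.5% of all tested genes did so. With DESeq2 each of the 32 genes kept its direction and its side of the threshold, while it called 5.94% of all tested genes higher and 3.27% lower. With no limit on the fold change edgeR also gave 2 genes higher and 4 lower, against 3.32% and 2.01% of all tested genes. The median log2 fold change over the 32 genes was -0.06, and over all tested genes it was -0.00.

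**Figure D1:**
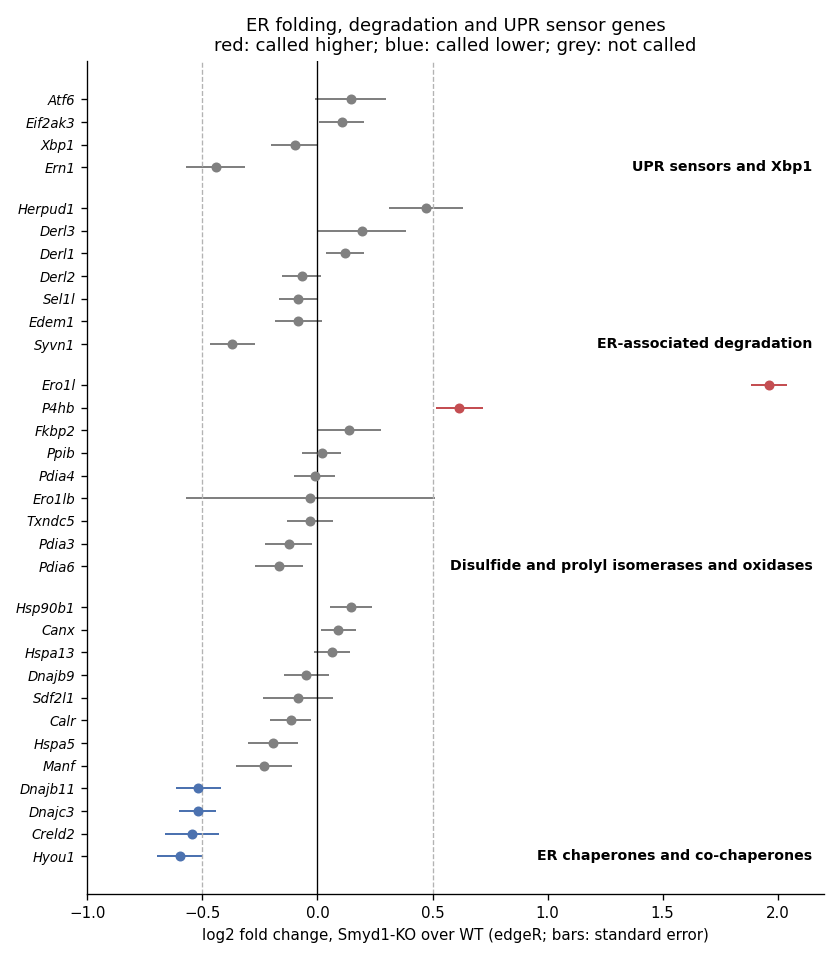
Log2 fold change of the 32 ER genes in *Smyd1-KO* over WT hearts (x axis, edgeR, bars are standard errors, 3 hearts per group), grouped by arm. *Ero1l* lies at 1.96 and *P4hb* at 0.62, the 4 called chaperones and co-chaperones lie between -0.60 and -0.52, and the dashed lines mark the limit of 0.5 used for calls.

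In the oxidase and isomerase arm the change was led by *Ero1l*, which encodes ERO1α, the oxidase that passes electrons from protein disulfide isomerase to oxygen. *Ero1l* (chr14:45283087-45318771, minus strand, GRCm38) was at 72.8, 70.8 and 68.7 CPM in WT hearts and at 260, 283 and 283 CPM in *Smyd1-KO* hearts. Every *Smyd1-KO* heart was far above every WT heart, and the hearts of a group were close to each other. The level was 3.89-fold higher (95% interval 3.43 to 4.42, log2 fold change 1.96, SE 0.0787, edgeR adjusted *P*=0.000126). Leaving out any 1 heart kept the call in 6 of 6 fits, with a log2 fold change of at least 1.94.

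*P4hb* encodes protein disulfide isomerase, which is oxidized by ERO1 and is also the beta subunit of collagen prolyl 4-hydroxylase. *P4hb* (chr11:120560298-120573253, minus strand) was at 664, 601 and 608 CPM in WT hearts and at 899, 916 and 1058 CPM in *Smyd1-KO* hearts. The groups did not overlap, and the *Smyd1-KO* hearts differed more among themselves than the WT hearts (SD 87.1 against 34.5 CPM). The level was 1.53-fold higher (95% interval 1.30 to 1.81, log2 fold change 0.62, SE 0.102, edgeR adjusted *P*=0.0210). With 1 heart left out the log2 fold change stayed between 0.54 and 0.67, but the gene was called in 2 of the 6 fits, those without WT heart 1 or *Smyd1-KO* heart 1, with adjusted *P* from 0.0198 to 0.124. The mesenchyme marker sum was 1291, 752 and 4068 CPM in the same *Smyd1-KO* hearts against 570 to 844 CPM in WT hearts, and its part in the level of *P4hb* was not tested.

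The other 7 genes of the arm were not called. *Pdia3*, the isomerase that works with the glycoprotein lectins, had a log2 fold change of -0.13 (SE 0.10), *Pdia4* -0.01 (SE 0.0889), *Pdia6* -0.17 (SE 0.102) and *Txndc5*, another disulfide isomerase, -0.03 (SE 0.10). The 95% intervals of the fold were 0.779 to 1.08 for *Pdia3*, 0.859 to 1.15 for *Pdia4*, 0.754 to 1.05 for *Pdia6* and 0.831 to 1.15 for *Txndc5*, all ending below the 1.30 at which the interval of *P4hb* began. The prolyl isomerase *Ppib*, which encodes cyclophilin B, was at 0.02 (SE 0.0855) and *Fkbp2* at 0.14 (SE 0.139). *Ppib* shares 825 exonic bases, 25.0% of its exonic length, with *Snx22* on the opposite strand, and the strand setting of the counting is not given in the sources used here. No called ER gene shares exonic bases with another annotated gene.

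*Ero1lb*, the other ERO1 gene, was low and was not called. It had 6.6, 4.85 and 2.36 CPM in WT hearts and 7.47, 4.23 and 1.82 CPM in *Smyd1-KO* hearts, so the groups overlapped throughout. Its log2 fold change was -0.03 with a wide error (SE 0.541, 95% interval of the fold 0.406 to 2.36). Per kb of exon, which allows the pair to be compared, *Ero1l* stood at 13.4 and *Ero1lb* at 0.692 CPM per kb in WT hearts on average. Within each heart the ratio of *Ero1l* to *Ero1lb* was 13.9, 18.4 and 36.7 in WT hearts and 43.9, 84.1 and 196 in *Smyd1-KO* hearts. All 3 *Smyd1-KO* hearts lay above all 3 WT hearts, with a difference of 2.09 in the mean log2 ratio. The exact two-sided permutation test over hearts gave *P*=0.1, which is the smallest *P* that 3 against 3 hearts allow.

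**Figure D2:**
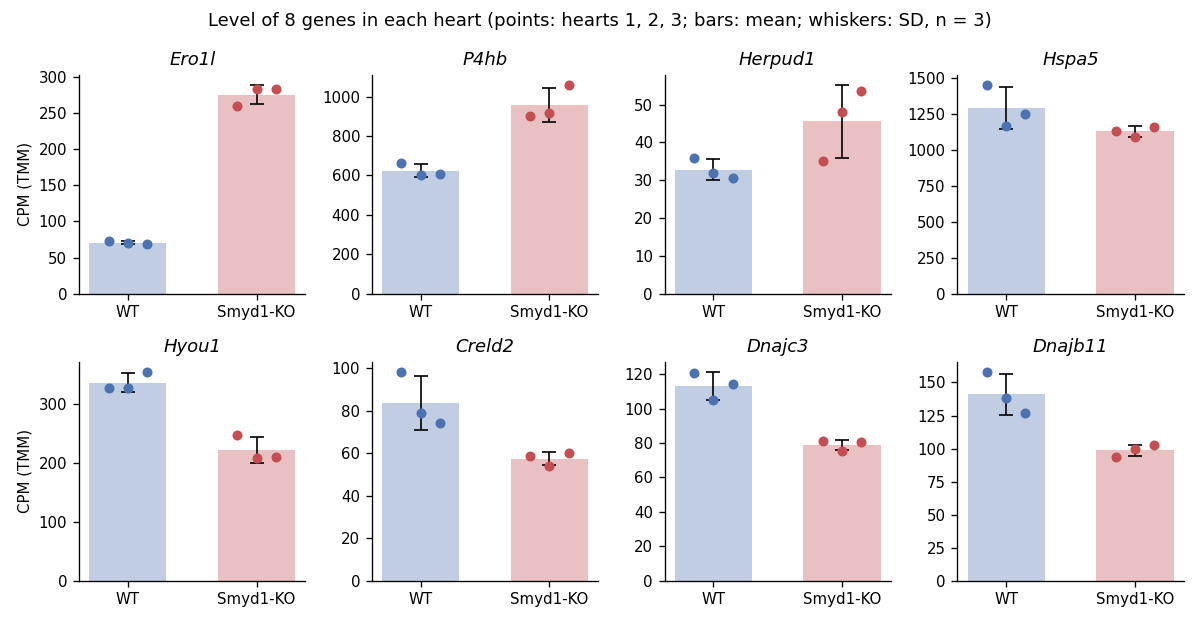
Level of 8 ER genes in each heart (y axis, CPM with TMM scaling, from 0), with points for hearts 1, 2 and 3, bars for the mean and whiskers for the SD (n = 3 hearts per group). *Ero1l* and *P4hb* are higher and *Hyou1*, *Creld2*, *Dnajc3* and *Dnajb11* lower in all 3 *Smyd1-KO* hearts, *Herpud1* overlaps between the groups, and *Hspa5* is slightly lower in all 3.

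The promoters of both upregulated oxidation genes held the core of the hypoxia response element, ACGTG, which 11 of the 27 matched ER genes (40.7%) and 5886 of all 27025 genes (21.8%) held on either strand. Both genes were picked because they were called, so this is no test, and the part of the core in their levels was not tested. The 150 bases before the start of *Ero1l* and the 100 bases before that of *P4hb* follow in the direction of the gene, with the core, read from the opposite strand as CACGT, in capitals. The RefSeq entries place it 63 bases before the start of *Ero1l* and 56 bases before that of *P4hb*. *P4hb* has a further match 35 bases after its start, and neither promoter held the ER stress element or its shorter form. Of the 11 holders of the core, 2 were called higher and 1, *Dnajc3*, lower, 6 had a negative log2 fold change, and the median was -0.03. Of the 16 matched genes without it, 0 were called higher and 2 lower, and the median was -0.08.
*Ero1l* (chr14:45318573-45318722, - strand): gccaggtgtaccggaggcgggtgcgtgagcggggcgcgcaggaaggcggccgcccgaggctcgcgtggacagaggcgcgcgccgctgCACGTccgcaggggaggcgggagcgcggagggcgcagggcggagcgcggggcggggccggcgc
*P4hb* (chr11:120573254-120573353, - strand): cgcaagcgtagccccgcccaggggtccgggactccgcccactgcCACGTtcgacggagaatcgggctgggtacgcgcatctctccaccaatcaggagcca

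In the chaperone arm the calls were all of lower levels, and BiP itself was not called. Of its 12 genes, 4 were called lower and 0 higher, 9 had a negative and 3 a positive log2 fold change, and the median was -0.15. Over all tested genes 1.42% were called lower and 2.86% higher, and 9731 of 19372 had a negative log2 fold change. The called genes were *Hyou1*, the nucleotide exchange factor of BiP, *Dnajc3* and *Dnajb11*, J-domain co-chaperones that bring substrates to BiP, and *Creld2*, a small ER protein known for its induction under ER stress.

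*Hyou1* (chr9:44379490-44392369, plus strand) was at 328, 328 and 355 CPM in WT hearts and at 248, 209 and 211 CPM in *Smyd1-KO* hearts. Its level in *Smyd1-KO* hearts was 0.660 of that in WT hearts (95% interval 0.562 to 0.775, log2 fold change -0.60, SE 0.0987, edgeR adjusted *P*=0.0210). *Dnajc3* (chr14:118937976-118981697, plus strand) was at 121, 105 and 114 CPM in WT hearts and at 81.1, 75.6 and 80.4 CPM in *Smyd1-KO* hearts. Its fold was 0.698 (95% interval 0.612 to 0.795, log2 fold change -0.52, SE 0.0805, edgeR adjusted *P*=0.0183). In both genes the highest *Smyd1-KO* heart lay well below the lowest WT heart.

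*Dnajb11* (chr16:22857845-22879634, plus strand) was at 158, 138 and 127 CPM in WT hearts and at 93.8, 99.5 and 102 CPM in *Smyd1-KO* hearts. Its fold was 0.698 (95% interval 0.596 to 0.818, log2 fold change -0.52, SE 0.0975, edgeR adjusted *P*=0.0314). *Creld2* (chr15:88819646-88826683, plus strand) was at 98.1, 79.0 and 74.1 CPM in WT hearts and at 58.7, 53.7 and 59.9 CPM in *Smyd1-KO* hearts. Its fold was 0.686 (95% interval 0.567 to 0.829, log2 fold change -0.54, SE 0.117, edgeR adjusted *P*=0.0438). WT heart 1 was the highest of all 6 hearts in both genes, and the groups still did not overlap.

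These 4 calls were lost in most fits without 1 heart. *Hyou1* and *Dnajc3* were each called in 1 of the 6 fits without 1 heart, the one without *Smyd1-KO* heart 1, and *Dnajb11* and *Creld2* in 0 of them, with adjusted *P* of 0.00906 to 0.104, 0.0202 to 0.0824, 0.0433 to 0.125 and 0.0521 to 0.144. The directions held in every one of these fits, with log2 fold changes from -0.68 to -0.41. The count of all genes called lower fell as well, from 275 with all hearts to 8 without WT heart 2, 41 without WT heart 3, 51 without *Smyd1-KO* heart 2, 70 without *Smyd1-KO* heart 3 and 139 without WT heart 1, and it was 447 without *Smyd1-KO* heart 1.

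*Hspa5* (chr2:34771970-34777547, plus strand) was at 1451, 1165 and 1253 CPM in WT hearts and at 1136, 1091 and 1161 CPM in *Smyd1-KO* hearts. The highest *Smyd1-KO* heart was just below the lowest WT heart, and the difference did not pass the test (log2 fold change -0.19, SE 0.108, 95% interval of the fold 0.735 to 1.04, edgeR adjusted *P*=0.318). *Hsp90b1*, the HSP90 of the ER, had a log2 fold change of 0.15 (SE 0.0921), *Canx* one of 0.09 (SE 0.0769) and *Calr* one of -0.12 (SE 0.0897). *Hsp90b1* and *Canx* were higher and *Manf*, a secreted ER protein that binds BiP, was lower in all 3 *Smyd1-KO* hearts without passing the test, at -0.23 (SE 0.122) for *Manf*. *Sdf2l1* was at -0.08, *Dnajb9* at -0.05 and *Hspa13* at 0.06, and their groups overlapped. *Hsp90b1* shares 415 exonic bases, 10.3% of its exonic length, with *1810014B01Rik* on the opposite strand.

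Set against *Hspa5* within each heart, a comparison that does not depend on library scaling and was chosen after the values were seen, the 4 genes were also lower. Per 100 units of *Hspa5*, both per kb of exon, *Hyou1* stood at 13.2, 16.5 and 16.6 in WT hearts and at 12.8, 11.2 and 10.6 in *Smyd1-KO* hearts. *Creld2* stood at 20.9, 21.0 and 18.3 against 16.0, 15.2 and 16.0, *Dnajb11* at 14.2, 15.5 and 13.3 against 10.8, 11.9 and 11.5, and *Dnajc3* at 6.85, 7.40 and 7.49 against 5.87, 5.70 and 5.70. The groups did not overlap in any of the 4. These genes had been picked as lower from the same counts, so the ratios are no separate support. *Hspa5* itself was lower in CPM in all 3 *Smyd1-KO* hearts, which raises every ratio to it. Separation was common on this scale, and most of it was toward higher values in *Smyd1-KO* hearts. Of the genes not called, *Hsp90b1*, *Canx*, *Hspa13*, *Pdia4*, *Txndc5*, *Ppib*, *Fkbp2*, *Herpud1*, *Derl1*, *Atf6* and *Eif2ak3* separated in that direction. Among them, *Hsp90b1* stood at 77.6, 85.1 and 87.2 against 107, 104 and 103 units, and *Pdia4* at 38.1, 41.8 and 42.9 against 48.3, 45.3 and 45.1. *P4hb* went from 67.6, 76.3 and 71.7 to 117, 124 and 135 units, so that the isomerase was below BiP in every WT heart and above it in every *Smyd1-KO* heart on this scale.

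**Figure D3:**
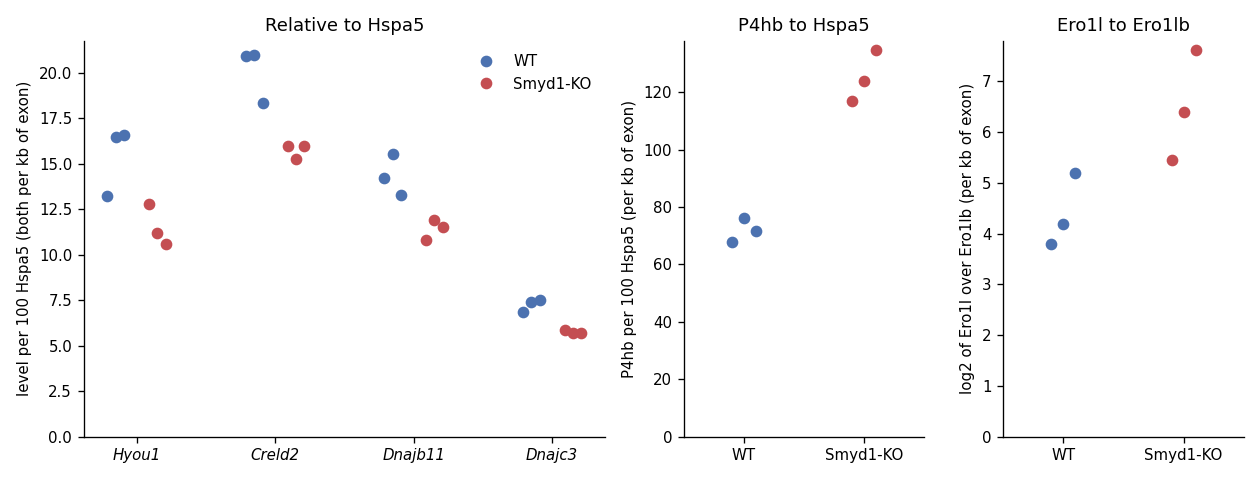
Ratios within each heart, WT in blue and *Smyd1-KO* in red, 3 hearts per group, all per kb of exon and all axes from 0. The left panel gives *Hyou1*, *Creld2*, *Dnajb11* and *Dnajc3* per 100 units of *Hspa5*, the middle panel *P4hb* per 100 units of *Hspa5*, and the right panel the log2 ratio of *Ero1l* to *Ero1lb*. The groups do not overlap in any panel.

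Genes with the ER stress element were found among those that fell and among those that were not called. Among its 10 holders, 2 were called lower (*Creld2* and *Dnajc3*) and 0 higher, 7 had a negative log2 fold change, the median was -0.14 and the range ran from -0.54 in *Creld2* to 0.19 in *Derl3*. Among the 17 matched genes without it, 1 was called lower and 2 higher, and the median was -0.05. That gene called lower is *Dnajb11*, which holds the shorter form, as does *Herpud1*, also counted as without the element. *Hyou1*, also called lower, had no promoter entry and is in neither group. The 150 bases before the starts of *Creld2* and *Dnajc3*, which fell, and of *Hspa5*, which was not called, are shown for comparison, in the direction of the gene and with the ends of the element in capitals. In *Creld2* the element lies on the opposite strand, so its ends read CGTGG and ATTGG, and in *Dnajc3* the capitals near the left end mark the hypoxia response core.
*Creld2* (chr15:88819496-88819645, + strand): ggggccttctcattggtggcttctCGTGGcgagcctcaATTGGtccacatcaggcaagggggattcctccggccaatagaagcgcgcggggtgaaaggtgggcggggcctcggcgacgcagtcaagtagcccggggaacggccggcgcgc
*Dnajc3* (chr14:118937782-118937931, + strand): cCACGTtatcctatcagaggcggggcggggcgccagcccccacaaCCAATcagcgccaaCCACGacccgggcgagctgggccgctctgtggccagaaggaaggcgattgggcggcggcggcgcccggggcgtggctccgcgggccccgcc
*Hspa5* (chr2:34771940-34772089, + strand): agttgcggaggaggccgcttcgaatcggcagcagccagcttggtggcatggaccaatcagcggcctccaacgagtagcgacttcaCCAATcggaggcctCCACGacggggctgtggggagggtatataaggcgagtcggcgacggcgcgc

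In ER-associated degradation, 0 of 7 genes were called in either direction. Over all tested genes 2.86% were called higher and 1.42% lower, so 0 calls among 7 genes do not set the arm apart. The log2 fold changes ran from -0.37 to 0.47, with 3 positive and 4 negative, and the median was -0.07. The outer values belonged to a pair of proteins that work in one complex. *Herpud1*, the membrane adaptor of the complex, was at 36.0, 31.8 and 30.7 CPM in WT hearts and at 35.0, 47.9 and 53.7 CPM in *Smyd1-KO* hearts. *Smyd1-KO* hearts 2 and 3 lay above all WT hearts and *Smyd1-KO* heart 1 lay within them, and the log2 fold change was 0.47 (SE 0.161, unadjusted *P*=0.0207, edgeR adjusted *P*=0.126). Without *Smyd1-KO* heart 1 it was 0.63 and the gene was called (adjusted *P*=0.0202), and over the 6 fits without 1 heart the adjusted *P* reached 0.317. *Smyd1-KO* heart 1 also had the lowest sums of cardiomyocyte and erythroid markers, whose part in this difference was not tested.

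*Syvn1* encodes HRD1, the ubiquitin ligase of the complex, and was at 60.8, 70.5 and 71.7 CPM in WT hearts and at 51.7, 48.4 and 56.9 CPM in *Smyd1-KO* hearts. The groups did not overlap, at a log2 fold change of -0.37 (SE 0.0982, edgeR adjusted *P*=0.0728). DESeq2 gave an adjusted *P* of 0.0393, with the fold change inside the limit of 0.5, and over the alternatives run the adjusted *P* ran from 0.0393 to 0.240. *Syvn1* shares 91 exonic bases with *Mrpl49* on the opposite strand. *Sel1l*, the partner of HRD1, was at -0.08 (SE 0.0830), *Edem1*, which sends misfolded glycoproteins to degradation, at -0.08 (SE 0.102), and the derlins, membrane proteins of the exit path, at 0.12 for *Derl1*, -0.07 for *Derl2* and 0.19 for *Derl3*. *Derl3* was low, at 2.78 to 3.69 CPM in WT and 3.21 to 4.05 CPM in *Smyd1-KO* hearts.

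The promoter of *Herpud1* was the only one of the 27 with both the shorter ER stress element and the core of the C/EBP-ATF response element through which ATF4 acts, TGATG, 1 base and AA, which 2 of the 27 ER genes (7.41%) and 1219 of all 27025 genes (4.51%) held. Its last 150 bases before the start are shown, chosen after the values were seen. Capitals mark the core on the opposite strand, where it reads TT, 1 base and CATCA, and the shorter element, whose CCACG shares 4 bases with a match to the hypoxia core. The other holder of this core, *Txndc5*, was also the only holder of TGACGTGG, the UPR element of ATF6 and XBP1, which 0.714% of all genes held and which contains the hypoxia core.
*Herpud1* (chr8:94386279-94386428, + strand): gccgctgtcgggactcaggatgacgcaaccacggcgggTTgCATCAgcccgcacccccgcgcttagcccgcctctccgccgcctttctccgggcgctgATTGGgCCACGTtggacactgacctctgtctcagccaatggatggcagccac

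Among the sensors, 0 of 4 genes were called, which at 2.86% called higher and 1.42% lower over all tested genes does not set them apart. *Ern1*, which encodes IRE1α, was at 18.6, 24.3 and 22.8 CPM in WT hearts and at 15.2, 17.1 and 16.1 CPM in *Smyd1-KO* hearts. The groups did not overlap, and the log2 fold change was -0.44 (SE 0.129, unadjusted *P*=0.0105, edgeR adjusted *P*=0.0919). The adjusted *P* was 0.0333 with DESeq2, where the fold change was again inside the limit of 0.5, and 0.0333 to 0.287 over the alternatives. *Eif2ak3*, the gene of PERK, was at 0.11 (SE 0.0978) and was higher in all 3 *Smyd1-KO* hearts by a small margin, with a lowest *Smyd1-KO* value of 18.7 and a highest WT value of 18.5 CPM. *Atf6* was at 0.15 (SE 0.154), and its WT hearts, at 41.3 to 61.8 CPM, enclosed the *Smyd1-KO* hearts, at 49.8 to 58.9 CPM. *Xbp1* was at -0.10 (SE 0.103), and counts per gene do not tell its spliced form from the unspliced one.

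**Figure D4:**
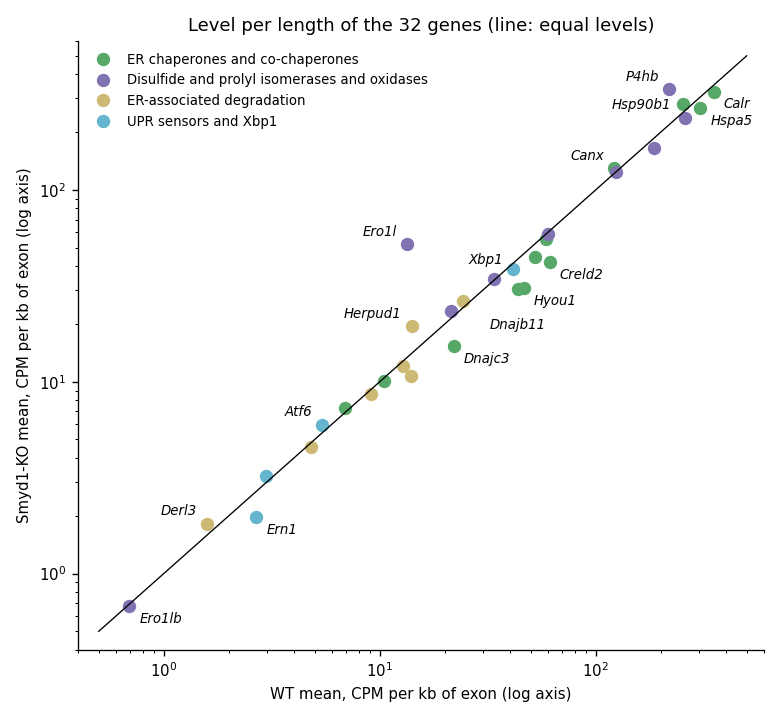
Mean level of the 32 ER genes in WT (x axis) and *Smyd1-KO* hearts (y axis), in CPM per kb of exon on log axes, colored by arm, n = 3 hearts per group. Genes above the line of equal levels are higher in *Smyd1-KO* hearts, and *Ero1l* stands farthest from it, at 13.4 in the WT hearts and 52.1 in the *Smyd1-KO* hearts.

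The 32 genes spanned a wide range of levels per length. In WT hearts *Calr* led with 353 CPM per kb, followed by *Hspa5* (305), *Pdia3* (260), *Hsp90b1* (253), *P4hb* (218) and *Pdia6* (186). *Ern1* (2.68), *Eif2ak3* (2.98), *Derl3* (1.59) and *Ero1lb* (0.692) were lowest. In *Smyd1-KO* hearts *P4hb* had the highest mean, 335 CPM per kb, next to *Calr* with 325 CPM per kb. These are means of 3 hearts, and the order of *P4hb* and *Calr* was not tested.

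The 32 genes were also grouped by inferred inducer. Of 15 genes inferred to respond to ATF6, 4 were called lower and 0 higher, 12 had a negative log2 fold change, and the median was -0.12. Of 11 genes inferred to respond to IRE1 and XBP1, 3 were called lower and 0 higher, 9 were negative, and the median was -0.08. The lists share members, and both hold *Dnajb11*, *Dnajc3* and *Creld2*. The 4 genes called lower in the first list are the same 4 that were called lower among all 32, so the grouping adds no further call. Over all 32 genes 20 were negative, and over all tested genes 2.86% were called higher and 1.42% lower.

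Genes of the ATF4 program, which other eIF2α kinases than PERK also start, were listed outside the 32. All 20 listed genes had a positive log2 fold change, with 11 called higher and a median of 0.74. The called genes of largest change were *Chac1* (4.26), which degrades glutathione, *Trib3* (3.62), a pseudokinase, and *Ddit4* (2.99), an inhibitor of mTORC1 that also responds to hypoxia. *Atf4* itself, named outside the rule for named genes, rose by 0.59 on the log2 scale (SE 0.12, edgeR adjusted *P*=0.0389). Without WT heart 2, 4 of the 20 genes were called, 6 without WT heart 3, and 7 each without WT heart 1, *Smyd1-KO* heart 2 or *Smyd1-KO* heart 3, while the median ran from 0.67 to 0.84 over these fits. The share of all tested genes called higher fell from 2.86% to 0.449%, 0.656%, 1.81%, 0.986% and 1.37% in the same order of fits.

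Of 20 listed HIF targets, 19 were called higher, with a median of 1.40, and the other, *Pfkfb4*, also named outside that rule, had a log2 fold change of -0.51 and was not called. The largest changes were those of *Ndrg1* (3.82), *Egln3* (2.51), an oxygen sensor that hydroxylates HIF, and *P4ha2* (2.37), an alpha subunit of collagen prolyl 4-hydroxylase. *P4ha1*, another alpha subunit and named after its values were seen, rose by 1.59 on the log2 scale (SE 0.109, edgeR adjusted *P*=0.000996), alongside the beta subunit *P4hb*. *P4ha1* was at 148, 127 and 131 CPM in WT hearts and at 376, 390 and 453 CPM in *Smyd1-KO* hearts. Without WT heart 2, 11 of the 20 targets were called, in the fit that called 0.449% of all tested genes higher.

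**Figure D5:**
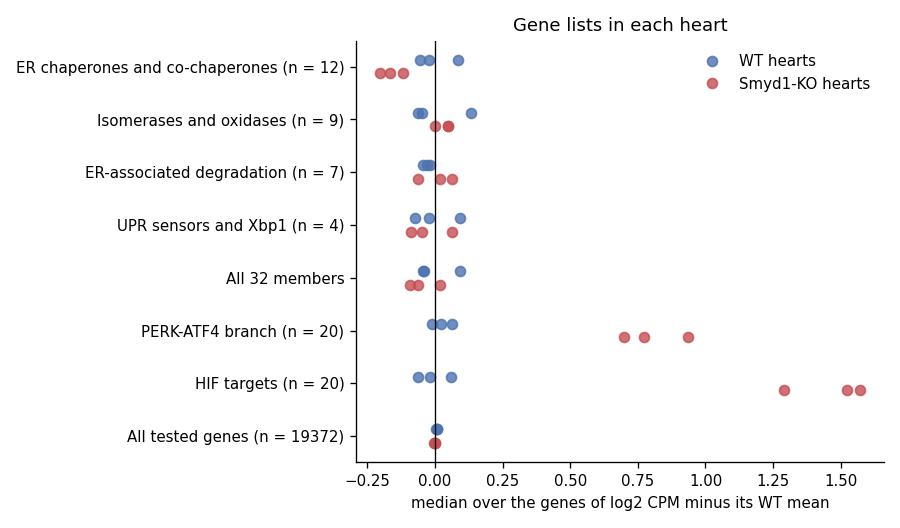
Median over the genes of a list of the log2 CPM minus its mean in WT hearts (x axis), with 1 point per heart, for the 4 arms, all 32 ER genes, the PERK-ATF4 list, the HIF target list and all tested genes. The *Smyd1-KO* hearts lie between -0.20 and -0.12 for chaperones, between 0.70 and 0.94 for the PERK-ATF4 list and between 1.29 and 1.57 for HIF targets.

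Heart by heart, the chaperone arm was at 0.09, -0.06 and -0.02 in WT hearts and at -0.16, -0.20 and -0.12 in *Smyd1-KO* hearts, as the median log2 CPM relative to the WT mean. The arm of isomerases and oxidases was at 0.13, -0.06 and -0.05 against 0.05, -0.00 and 0.05, so its median overlapped between the groups although it holds *Ero1l* and *P4hb*. ER-associated degradation was at -0.04, -0.03 and -0.02 against 0.06, -0.06 and 0.02, and the sensors and *Xbp1* at 0.09, -0.02 and -0.07 against -0.09, -0.05 and 0.06. WT heart 1 was the highest WT heart in 3 of the 4 arms. Without it, the median log2 fold change over all 32 genes was 0.01.

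Other ER genes gave few calls. Among 26 further ER disulfide enzymes and co-chaperones, 25 were tested, 2 were called higher and 0 lower, and the median was 0.19. The called genes were *Sil1*, a nucleotide exchange factor of BiP like *Hyou1*, and *Sdf2*. *Sil1* was at 11.9, 11.7 and 10.6 CPM in WT hearts and at 17.1, 17.9 and 18.3 CPM in *Smyd1-KO* hearts, with a log2 fold change of 0.64 (SE 0.109, edgeR adjusted *P*=0.0232). *Sdf2* had a log2 fold change of 0.58 (SE 0.0897, edgeR adjusted *P*=0.0183). *Hyou1* was called lower and *Sil1* called higher, on the same side in all 3 *Smyd1-KO* hearts each, with no overlap between the groups. Neither *Sil1* nor *Sdf2* was called without WT heart 2, WT heart 3, *Smyd1-KO* heart 2 or *Smyd1-KO* heart 3.

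Of 25 further degradation genes 0 were called, with a median of -0.00, 6 lower and 1 higher at an unadjusted *P* under 0.05. Over all tested genes 11.9% were lower and 13.1% higher at that limit, and 1.42% and 2.86% were called. At these shares, 0 calls in a list of this size or smaller do not set it apart from other genes. *Vcp*, the ATPase that pulls proteins from the ER membrane, and its cofactor *Nploc4* had an adjusted *P* under 0.05 but a log2 fold change inside the limit of 0.5, at -0.44 (SE 0.0947, edgeR adjusted *P*=0.0441) and -0.38 (SE 0.0691, edgeR adjusted *P*=0.0291). Both were picked for naming with their values known. The 24 genes of the translocon and signal peptide processing had 0 calls and a median of 0.04, with 2 higher and 2 lower at an unadjusted *P* under 0.05. The 17 genes of N-glycosylation had 0 calls and a median of 0.06, with 3 higher and 1 lower, and the 12 membrane stress factors 0 calls and a median of 0.15, with 4 higher and 1 lower.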

How the data were processed

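RNA-seq of 3 *Smyd1-KO* and 3 WT hearts was analysed, grouped by the genotype in the sample labels, and no column was left unmapped. Per the labels and the study's methods, the authors aligned poly A RNA reads to mm10 with STAR and deposited raw counts per gene, without normalization. The counting tool, its strand setting and the annotation release are not given in the sources used here. The deposited table of counts divided by DESeq2 size factors was not used.

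The raw counts were fitted in R 4.3.3 with edgeR 4.0.16 (filterByExpr, TMM, quasi-likelihood test, Benjamini-Hochberg adjustment over 19372 genes). CPM carry the TMM factors. A standard error is the log2 fold change divided by the square root of the *F* statistic, and intervals are at the 95% level. Per the labels, RNA came from individual embryonic hearts. Reads carry no molecular identifiers, and *P* values rest on the spread between 3 hearts. At 48627825 to 64217529 counts per heart, each of the 32 genes had over 100 counts in every heart.

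Gene positions and exonic lengths came from the GENCODE annotation of GRCm38, in which 54409 of 54532 genes were found, and promoter windows from RefSeq. The 32 genes, all lists and the tests were chosen with earlier results of these data known, so counts over a list are descriptions. The named genes are the 32, plus up to 3 called genes of largest change in each direction from the other lists. *Atf4*, *Pfkfb4*, *P4ha1*, *Vcp* and *Nploc4* were named outside this rule, after their values were seen. The fits were checked on simulated data. Alternatives were DESeq2 1.42.0, RLE size factors, keeping all genes, a minimum of 10 counts per heart, dropping haemoglobin and mitochondrially encoded genes, no limit on the fold change, a replicate block and fits without 1 heart. Proteins and chromatin were not analysed here. Figures were drawn in Python 3.11.15 with matplotlib 3.10.9.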

Additional observations from a re-analysis of the deposited data

How the results depend on the processing

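With DESeq2, RLE size factors, no filter, a minimum of 10 counts per heart, or without haemoglobin and mitochondrially encoded genes, each of the 32 genes kept its direction and its side of the threshold, and the counts stayed at 2 called higher and 4 called lower, as they did with no limit on the fold change. The median log2 fold change of the 32 genes was -0.06 to -0.05 under these settings and -0.07 with the block. Leaving out 1 heart at a time gave 1 to 3 genes called higher, 0 to 2 called lower, a median of -0.0756 to 0.00995 (above 0 only without WT heart 1) and a difference of 1.53 to 2.61 in the log2 ratio of *Ero1l* to *Ero1lb*. In these fits, log2 fold changes that were near 0 with all hearts changed sign for *Dnajb9* (-0.122 to 0.00149), *Sdf2l1* (-0.202 to 0.112), *Pdia4* (-0.0642 to 0.0341), *Txndc5* (-0.0832 to 0.0641) and *Ppib* (-0.0267 to 0.0880). That of *Ero1lb* also changed sign and moved far more, from -0.602 to 0.346. Same-numbered hearts come from different embryos. Their deviations from the group means had correlations of -0.22, -0.05 and -0.18, beside a mean of 0.07 for hearts of unlike number. With 3 hearts per group these values cannot show whether same-numbered hearts shared a litter or a preparation, so any pairing is not known. With the replicate number as a block, 1 ER gene (*Ero1l*, adjusted *P*=0.0252) was called higher and 0 lower, and 0.289% and 0.0155% of all tested genes were called. The log2 ratio of *Ero1l* to *Ero1lb* had *P*=0.25 in the exact test over pairs, which is the smallest *P* that 3 pairs allow. Among HIF targets, DESeq2 also called 1 gene, *Pfkfb4*, lower. *Ero1lb* (SE 0.541) and *Derl3* (SE 0.192), the lowest of the 32 in CPM, had the widest errors. *Derl3* had the lower WT mean, 3.17 against 4.60 CPM. *Ero1lb* fell from heart 1 to heart 3 in both genotypes, and *Derl3* did not.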
